A study of Mus musculus with 157 samples.

Results

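The core pluripotency genes described here are Pou5f1, Sox2, Nanog, Sall4, Utf1, L1td1, Lin28a and Tdh, 8 of the 23959 gene symbols in the deposited tables. They were taken by name, and each symbol is represented by its transcript with the highest mean raw count. All 8 passed the filter on low counts in all 4 tables. The cells were wildtype mouse E14 embryonic stem (ES) cells, an established line cultured on gelatin with serum and LIF, the cytokine that holds them undifferentiated. They received 1 µM retinoic acid (RA), which starts differentiation, for 2, 4, 6, 24, 48 or 72 h, or were left untreated (0 h). Crosslinked chromatin was immunoprecipitated with antibodies to RNA polymerase II (Pol II). The first antibody recognises the N-terminal domain and so total Pol II (NTD). The other two recognise the C-terminal repeat phosphorylated at serine 5 (Ser5p), the form concentrated near gene starts, or at serine 2 (Ser2p), the form that builds up along genes during elongation. Each antibody and time had 2 or 3 libraries, 53 in all. Unless another test is named, a change is a log2 difference against 0 h from edgeR's quasi-likelihood test on raw counts, and a gene was called where its p, adjusted by the Benjamini-Hochberg method over all transcripts of the table, was under 0.05. The labels do not state whether replicates are separate cultures, and the p-values then reflect only how far these samples spread, possibly for technical reasons.

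In ES cells the transcription factors Pou5f1 (Oct4), Sox2 and Nanog bind each other's regulatory regions and those of many genes of the undifferentiated state, and RA shuts this network down as cells differentiate. Pou5f1 carries a POU domain, Sox2 an HMG box, Nanog a homeodomain and Sall4 zinc fingers, while Utf1 is a chromatin-associated factor of undifferentiated cells. L1td1 is an RNA-binding protein derived from a LINE-1 element, Lin28a is an RNA-binding protein that blocks maturation of let-7 microRNAs, and Tdh is the mitochondrial threonine dehydrogenase on which mouse ES cells depend.

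At transcription start sites (TSS) and over gene bodies, 5 of the 8 genes (Pou5f1, Sox2, Utf1, L1td1 and Tdh) had lost total and Ser5p Pol II by 48 h of RA, and Nanog and Lin28a were called lower in no table at any time. Tdh was the gene called lower at 24 h in all 4 tables, and total Pol II at its TSS was 17.2% of the untreated level at 48 h. The 24 h libraries of each antibody are replicates 2 and 3, and those of 0 h are replicates 1 and 4. At 24 h a difference between these replicate sets therefore cannot be told apart from time. The 48 h libraries are replicates 1, 2 and 3 and those of 72 h replicates 1 and 3. Only replicate 1 is thus shared with 0 h, and at these times such a difference can be told apart only in part. Ser2p was called lower for Utf1 and Tdh only. Its fitted changes at 48 h lay above those of total Pol II over the body in all 8 genes, a difference that passed the test for no gene. They already lay above in 7 of the 8 at 6 h. No gene was called lower at 2, 4 or 6 h in any table.

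The genes lie on 7 chromosomes of the mouse build mm10. Pou5f1 is at chr17:35506032-35510777, Sox2 at chr3:34649995-34652461, Nanog at chr6:122707489-122714633 and Sall4 at chr2:168748332-168767201. Utf1 is at chr7:139943856-139945112, L1td1 at chr4:98726754-98738486, Lin28a at chr4:134003330-134019196 and Tdh at chr14:63492347-63509092. Sox2 lies inside the noncoding gene Sox2ot, Sall4 overlaps Gm14261 and Tdh overlaps Gm17232. ChIP-seq does not read strand, so reads of these overlapping genes cannot be told apart. Gm32362 lies 295 bases from Pou5f1, and whether counts within 1 kb of the Pou5f1 TSS take in its reads was not checked. RefSeq promoter windows of GRCm38.p6 (250 bases before to 50 bases after a start) were at hand for 6 of the 8 genes. They were searched on both strands for the octamer of POU factors (ATGCAAAT) and for the SOX motif CATTGT. The TATA box was searched as TATAAA, and the GC box as GGGCGG. A core motif of nuclear receptors, RA receptors among them, was searched as AGGTCA. The composite site of SOX and POU factors was searched as CATTGTNATGCAAA. A composite match contains a SOX match, and neighbouring GC boxes may share a base.

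The starts of the 4 windows below were not matched to the transcripts whose reads were counted. The windows are shown because 2 of the genes lost Pol II and 2 were not called lower. They are Pou5f1 (chr17:35505782-35506081, plus strand), Utf1 (chr7:139943606-139943905, plus strand), Nanog (chr6:122707239-122707538, plus strand) and Lin28a (chr4:134018767-134019066, minus strand). Capitals mark the matches.
Pou5f1: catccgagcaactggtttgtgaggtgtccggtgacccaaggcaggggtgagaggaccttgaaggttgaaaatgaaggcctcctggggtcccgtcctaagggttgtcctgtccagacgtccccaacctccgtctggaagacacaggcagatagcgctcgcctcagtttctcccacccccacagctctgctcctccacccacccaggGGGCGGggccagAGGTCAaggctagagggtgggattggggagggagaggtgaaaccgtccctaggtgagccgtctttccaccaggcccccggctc
Utf1: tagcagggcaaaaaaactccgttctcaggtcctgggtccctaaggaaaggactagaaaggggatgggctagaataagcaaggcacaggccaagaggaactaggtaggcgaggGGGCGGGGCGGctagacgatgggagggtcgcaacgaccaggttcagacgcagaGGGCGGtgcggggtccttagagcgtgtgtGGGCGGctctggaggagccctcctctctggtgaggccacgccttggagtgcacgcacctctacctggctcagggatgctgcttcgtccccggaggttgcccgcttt
Nanog: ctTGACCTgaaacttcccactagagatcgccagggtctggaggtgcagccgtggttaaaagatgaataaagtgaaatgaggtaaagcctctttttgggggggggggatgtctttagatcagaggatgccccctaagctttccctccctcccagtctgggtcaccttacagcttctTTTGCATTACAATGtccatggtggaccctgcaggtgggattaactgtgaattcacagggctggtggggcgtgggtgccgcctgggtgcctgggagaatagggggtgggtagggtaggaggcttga
Lin28a: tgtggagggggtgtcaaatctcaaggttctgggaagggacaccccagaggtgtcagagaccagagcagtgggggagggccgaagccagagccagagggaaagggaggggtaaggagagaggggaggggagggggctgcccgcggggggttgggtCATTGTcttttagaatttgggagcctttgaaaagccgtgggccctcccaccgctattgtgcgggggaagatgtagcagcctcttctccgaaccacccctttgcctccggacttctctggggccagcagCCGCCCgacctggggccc
Pou5f1 held a GC box from base -45 and AGGTCA from base -33, counted from the start, and Utf1 held 4 GC boxes between bases -138 and -51. A GC box is in 35.7% and AGGTCA in 16.3% of the 32851 windows in the table. Nanog held the composite from base -75 to -62 on the opposite strand, and AGGTCA from base -248 on the opposite strand. The composite was in 2 windows of the table (0.00609%), both of them Nanog's overlapping entries. Lin28a held CATTGT from base -96 and a GC box on the opposite strand from base 33, in a window whose start lies inside the gene span given above. CATTGT is in 12.6% of windows, the octamer in 1.74% and TATAAA in 13.6%. These are matches of letters and say nothing of which factors were bound.

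Reads per library numbered 1088159 to 3210580 (NTD) and 1504737 to 3347830 (Ser5p) within 1 kb of TSS, and 11684907 to 25696364 (NTD) and 18045745 to 28745658 (Ser2p) over gene bodies. At the TSS a value of one of the 8 genes rested on 9 to 364 reads (NTD) or 20 to 375 reads (Ser5p). An earlier account of these data named the NTD libraries 0 h replicate 4 and 72 h replicate 3 as standing apart. The NTD counts below are also given without them, which leaves 1 library at 0 h and 1 at 72 h. The 0 h pair differed over 2-fold at 3.74% (TSS) and 0.0803% (bodies) of well-covered transcripts, against medians of 3.91% and 0.0361% over same-time pairs. The 72 h pair differed most, at 9.74% and 3.03%. A pair does not show which of its libraries stands apart, so that name is the earlier account's. Below, NTD libraries "that stand apart" means these 2 as that account named them, not a finding made here. The body window starts at the TSS and so overlaps the TSS window, most of all in Utf1 (1257 bases) and Sox2 (2467 bases). Summed over 12 primitive endoderm markers, NTD over gene bodies was 379 to 397 CPM (counts scaled to a common library size) at 0 h, 463 to 606 CPM at 48 h and 719 to 1031 CPM at 72 h. For 12 neural markers the sums were 402 to 412, 360 to 429 and 364 to 423 CPM, and for 10 fibroblast markers 221 to 241, 215 to 265 and 196 to 244 CPM, at 0, 48 and 72 h. No marker was at 0 in every library. The part of other cell types in the losses was not tested, and in bulk chromatin fewer undifferentiated cells and less Pol II per cell cannot be told apart.

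In untreated cells the 8 genes carried unequal amounts of Pol II per length. NTD over Sox2 was 10.1 and 14.8 FPKM (depth-scaled reads per kilobase) and over Utf1 10.4 and 14.3 FPKM, in 0 h replicates 1 and 4. The other 6 lay lower, with L1td1 at 3.85 and 5.19 FPKM, Sall4 at 4.21 and 4.79 FPKM and Pou5f1 at 2.90 and 5.08 FPKM. Nanog had 2.36 and 4.22 FPKM, Tdh 3.02 and 3.62 FPKM and Lin28a 2.51 and 2.21 FPKM. Sox2 and Utf1 overlapped each other and lay above the other 6 genes in both libraries, and neighbours among those 6 overlapped. Both are the shortest of the 8, so the TSS fills more of their window. Ser2p was more even, from 4.25 and 2.89 FPKM over Sox2 and 3.44 and 2.87 FPKM over Utf1 to 1.69 and 1.23 FPKM over Lin28a.

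In the first 6 h no member was called lower in any of the 4 tables, while 0.659% of all symbols were called lower at 2, 4 or 6 h for NTD at TSS, 0.00873% for Ser5p at TSS, 0% for NTD over gene bodies and 0% for Ser2p. Over these 3 times the number of lower values with an unadjusted p under 0.05 in edgeR was 3, 1, 2 and 0 of 24 in the same order. Higher values with such a p numbered 2, 1, 0 and 5. DESeq2 called 0 in either direction among those to which it gave an adjusted p. For Ser2p at 2 h, 4 of the 8 genes were higher at an unadjusted p under 0.05 in edgeR, and 0 were called. The median log2 change of the 8 was 0.41 there, against -0.02 over all symbols. For changes of single antibodies, here and below, no count over all symbols at an unadjusted p was taken. The member and list counts at that p therefore stand without a background. Tdh had its lowest early value at 6 h. Its NTD level at the TSS was 41.8 and 44.2 CPM at 0 h, 38.2 and 34.5 CPM at 2 h, 41.8, 21.7 and 27.8 CPM at 4 h and 25.9, 20.8 and 22.2 CPM at 6 h. All 3 libraries at 6 h lay below both at 0 h, with a log2 change of -0.91 ± 0.24 (SE, adjusted p = 0.0612). Lin28a went the other way, with 47.2 and 32.9 CPM at 2 h and 53.7, 33.2 and 29.6 CPM at 4 h, all above the 22.7 and 28.3 CPM at 0 h, and its log2 changes of 0.63 and 0.60 did not pass the test (adjusted p = 1.000 and 0.735).

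**Figure D1:**
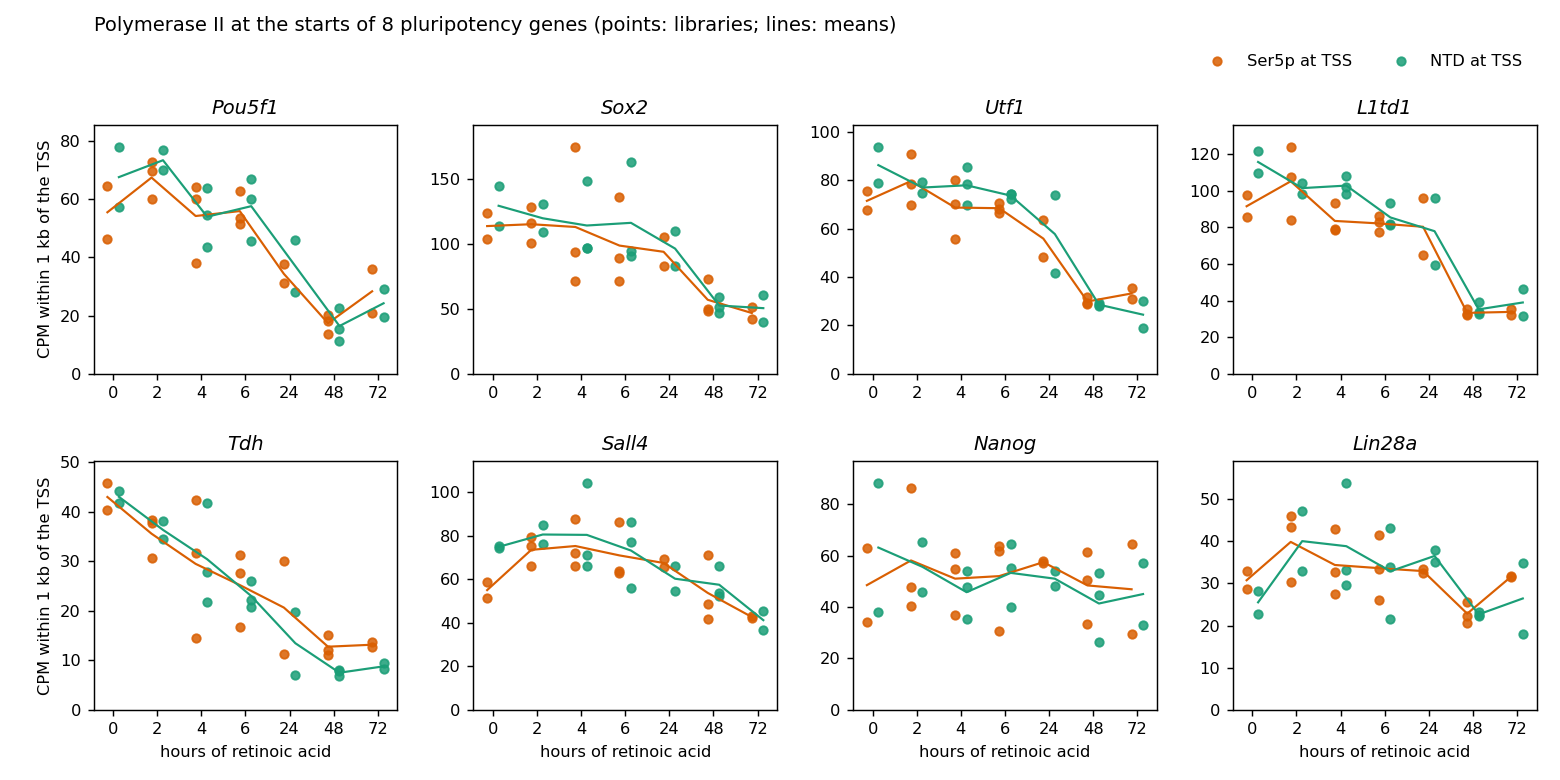
CPM within 1 kb of the TSS for each gene (y axis, from 0) at each time of RA (x axis, hours, evenly spaced), with Ser5p left of NTD, 1 point per library and a line through the means. Tdh had 6.76 to 7.97 CPM of NTD at 48 h against 41.8 and 44.2 CPM at 0 h, whereas the Nanog points of 0 h (38.2 and 88.1 CPM) enclosed 2 of the 3 at 48 h.

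Total Pol II at the TSS fell in 2 genes at 24 h, in 5 at 48 h and in 6 at 72 h, and none rose. The shares of all 22142 symbols called lower were 0.745%, 5.21% and 3.51%. The median log2 change of the 8 was -0.51, -1.45 and -1.38 at 24, 48 and 72 h, against -0.05, -0.04 and -0.06 over all symbols. Over all times together, an F test called all but Nanog and Lin28a (15.1% of all symbols). Without both NTD libraries that stand apart the counts were 1, 5 and 5.

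Among the transcription factors, Pou5f1 had 57.3 and 77.7 CPM at 0 h, 45.9 and 28.0 CPM at 24 h, 22.6, 15.4 and 11.2 CPM at 48 h and 19.4 and 29.0 CPM at 72 h. Every library from 24 h on lay below both untreated ones, and 2 of the 3 at 48 h lay below all others. Its level at 48 h was 24.4% of the untreated one, a log2 change of -2.03 ± 0.24 (SE, adjusted p = 4.7e-08). The change at 24 h, -0.89 ± 0.24 (SE, adjusted p = 0.0358), was lost under 9 of 24 alternatives, among them the replacement of TMM scaling by RLE (adjusted p = 0.0502), by the authors' factors (adjusted p = 0.432), or the removal of 24 h replicate 3 (adjusted p = 0.668).

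Sox2 had 114 and 145 CPM at 0 h, 109.8 and 83.4 CPM at 24 h, 47.2, 51.4 and 59.4 CPM at 48 h and 40.2 and 61.0 CPM at 72 h. The libraries of 48 and 72 h lay below all of 0 and 24 h. Its log2 changes were -1.31 ± 0.23 (SE, adjusted p = 4.24e-05) at 48 h and -1.32 ± 0.25 (SE, adjusted p = 2.06e-04) at 72 h, and the 72 h change missed the threshold with the authors' factors (adjusted p = 0.0779). Sall4, a zinc-finger partner of Pou5f1, had 74.4 and 75.3 CPM at 0 h, 53.8, 66.1 and 52.5 CPM at 48 h and 45.6 and 36.8 CPM at 72 h. All libraries of both later times lay below the untreated ones, but only 72 h passed, at -0.88 ± 0.23 (SE, adjusted p = 0.00767), and it did not pass once 72 h replicate 3 was left out (log2 change -0.70, adjusted p = 0.181), nor without either 0 h library.

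Nanog varied most among untreated libraries, with 38.2 and 88.1 CPM at 0 h, 48.2 and 53.9 CPM at 24 h, 44.5, 26.3 and 53.4 CPM at 48 h and 32.8 and 57.3 CPM at 72 h. The higher untreated library was above every treated one and the lower lay within their range. The log2 change at 48 h was -0.70 ± 0.26 (SE, adjusted p = 0.0827), which did not pass, and it was 0.06 without 0 h replicate 4 and 72 h replicate 3. The 95% interval of -1.22 to -0.18 at 48 h does not show that Nanog kept its level.

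Utf1, the chromatin-associated factor, had 79.0 and 93.7 CPM at 0 h, 73.8 and 41.9 CPM at 24 h, 29.2, 28.2 and 28.4 CPM at 48 h and 30.1 and 18.8 CPM at 72 h. The 3 libraries at 48 h were nearly equal and far below the untreated ones. Its log2 changes were -1.60 ± 0.21 (SE, adjusted p = 3.44e-07) at 48 h and -1.88 ± 0.24 (SE, adjusted p = 1.85e-07) at 72 h, where it ranked 32 from the lowest of 22142 symbols.

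Of the 2 RNA-binding proteins, L1td1 had 110.0 and 122 CPM at 0 h, 96.3 and 59.6 CPM at 24 h, 33.9, 39.1 and 32.7 CPM at 48 h and 46.2 and 31.7 CPM at 72 h. Levels at 48 and 72 h did not overlap with those of 0 or 24 h, and the log2 change at 48 h was -1.70 ± 0.20 (SE, adjusted p = 2.98e-08). Lin28a had 22.7 and 28.3 CPM at 0 h, 22.6, 22.2 and 23.2 CPM at 48 h and 18.1 and 34.8 CPM at 72 h. These groups overlapped or touched, and its log2 changes of -0.19 and 0.11 did not pass (adjusted p = 0.781 and 0.884).

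Tdh, the metabolic enzyme, had 19.8 and 7.09 CPM at 24 h, 7.97, 6.76 and 7.74 CPM at 48 h and 9.38 and 8.18 CPM at 72 h. Each of these lay below all libraries of 0 to 6 h. Its log2 changes were -1.73 ± 0.29 (SE, adjusted p = 2.35e-04) at 24 h and -2.54 ± 0.30 (SE, adjusted p = 2.25e-08) at 48 h, and at 72 h it ranked 5 from the lowest of all symbols with -2.31 ± 0.32 (SE, adjusted p = 9.04e-07). The 24 h call rested on 24 h replicate 3, without which the change was -1.12 (adjusted p = 0.144). The 48 h libraries of Tdh held 9 to 18 reads each.

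Ser5p at TSS was called lower in the same 5 genes at 48 and 72 h. Of the 8, 1 was called lower at 24 h (3.08% of 22897 symbols), 5 at 48 h (5.5%) and 5 at 72 h (3.92%). The median log2 change was -0.24, -1.13 and -1.03, against -0.11, -0.08 and -0.06 over all symbols, and the F test called the same 6 genes as for NTD (14.2% of symbols). Tdh again was the gene called at 24 h, with 30.0 and 11.3 CPM at 24 h against 40.3 and 45.7 CPM at 0 h and a log2 change of -1.13 ± 0.31 (SE, adjusted p = 0.0311). Its 2 libraries at 24 h differed widely, and it did not pass once 24 h replicate 3 was left out (log2 change -0.51, adjusted p = 0.504), nor without 0 h replicate 4 (adjusted p = 0.18) or with the authors' factors (adjusted p = 0.111).

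At 48 h Ser5p of Pou5f1 was 18.2, 20.1 and 13.7 CPM against 46.3 and 64.6 CPM at 0 h, a log2 change of -1.66 ± 0.24 (SE, adjusted p = 1.27e-05). The groups were far apart, and at 72 h the level was 20.7 and 35.9 CPM, with -0.95 ± 0.26 (SE, adjusted p = 0.0129). This 72 h change was -0.61 without 72 h replicate 1 (adjusted p = 0.174), -0.70 without 0 h replicate 4 (adjusted p = 0.248) and -0.71 with the authors' factors (adjusted p = 0.212). L1td1 had 35.2, 32.1 and 32.6 CPM at 48 h against 85.6 and 97.6 CPM at 0 h, and changed by -1.46 ± 0.22 (SE, adjusted p = 1.6e-05). Utf1 had 31.6, 29.3 and 28.8 CPM against 75.5 and 67.7 CPM, and changed by -1.26 ± 0.21 (SE, adjusted p = 6.6e-05). Replicates of both genes at 48 h lay within a few CPM of each other and well below 0 h. Tdh changed by -1.74 ± 0.31 (SE, adjusted p = 1.49e-04) and Sox2, with 48.6, 49.9 and 72.8 CPM against 104 and 124 CPM, by -0.99 ± 0.27 (SE, adjusted p = 0.0104), which did not pass with the authors' factors (adjusted p = 0.157), nor when 0 h replicate 4 was left out (adjusted p = 0.143).

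Ser5p at Nanog gave no direction, with 50.4, 33.4 and 61.4 CPM at 48 h against 34.3 and 62.8 CPM at 0 h and a log2 change of 0.02 (95% interval -0.60 to 0.63). Sall4 changed by -0.03 ± 0.22 (SE, adjusted p = 0.943) at 48 h and -0.37 ± 0.25 (SE, adjusted p = 0.403) at 72 h. Lin28a had 32.9 and 28.7 CPM at 0 h, 20.6, 25.6 and 22.2 CPM at 48 h and 31.6 and 31.7 CPM at 72 h. Its 48 h libraries lay below both at 0 h, and neither time passed (adjusted p = 0.243 and 0.960). With the authors' scale factors the median of all transcripts at TSS was itself shifted, to 0.20 for NTD and 0.23 for Ser5p at 48 h (against -0.03 and -0.07 with TMM), and the members called at 48 h were 5 for NTD and 4 for Ser5p.

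**Figure D2:**
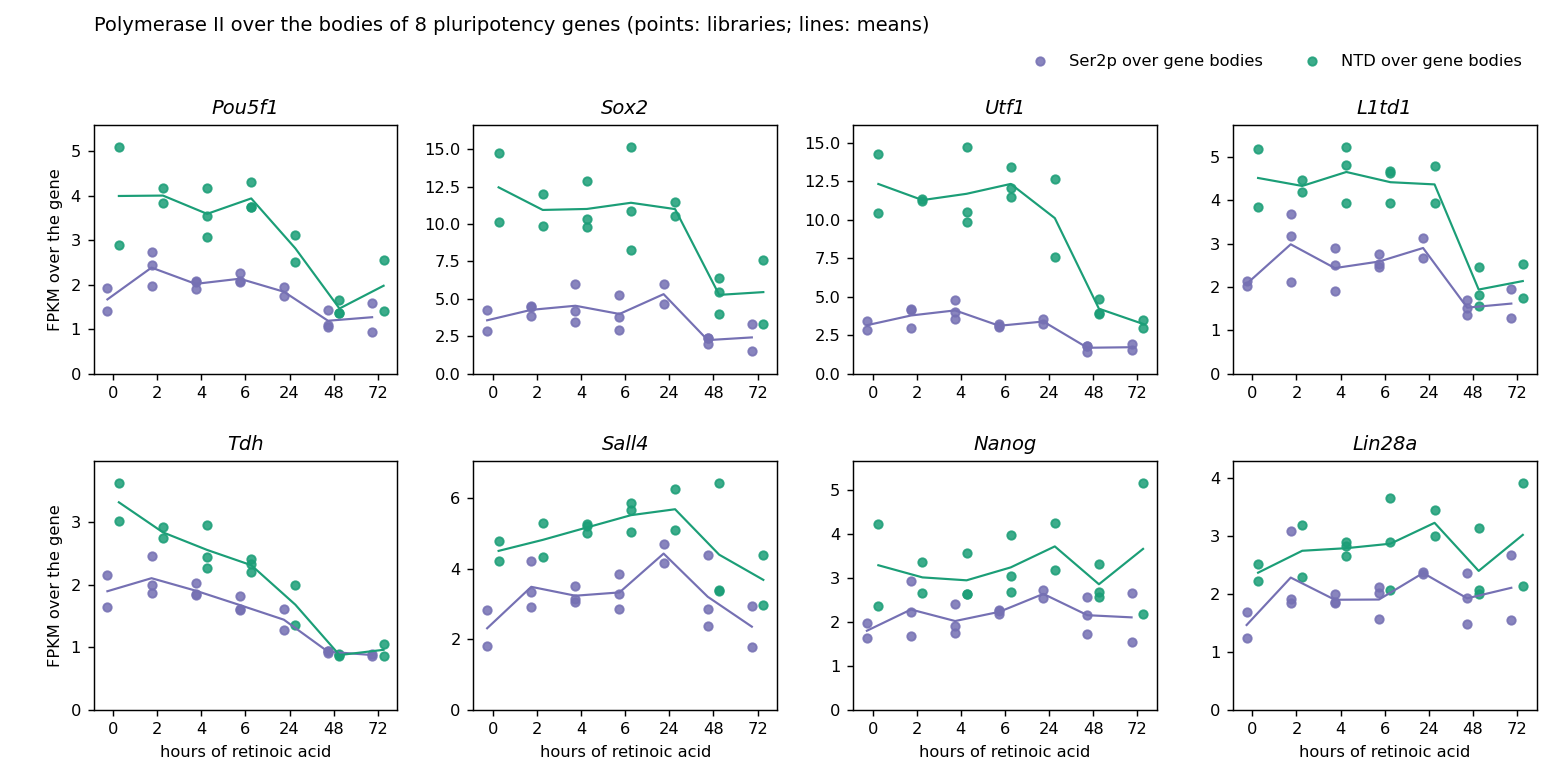
Deposited FPKM over each gene (y axis, from 0) at each time of RA (x axis, hours, evenly spaced), with Ser2p left of NTD, 1 point per library and a line through the means. Utf1 NTD was 3.89 to 4.86 FPKM at 48 h against 10.4 and 14.3 FPKM at 0 h, and its Ser2p 1.41 to 1.84 FPKM against 2.87 and 3.44 FPKM.

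Over gene bodies, total Pol II fell in the same 5 genes, and in 1 of them (Tdh) already at 24 h. The counts of 1, 5 and 5 at 24, 48 and 72 h stand beside shares of 0.0137%, 1.89% and 1.58% of 21879 symbols. The median log2 change was -0.14, -1.23 and -1.07, against -0.01, 0.01 and -0.03 over all symbols, and the F test called these 5 genes (7.32% of symbols). Without both NTD libraries that stand apart the counts were 0, 4 and 2, and without 0 h replicate 4 alone 2 were called at 48 h and 2 at 72 h, Utf1 and Tdh at 48 h among them.

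NTD over Tdh was 3.02 and 3.62 FPKM at 0 h, 2.00 and 1.36 FPKM at 24 h, 0.890, 0.876 and 0.863 FPKM at 48 h and 0.862 and 1.06 FPKM at 72 h. Libraries of 48 h agreed closely and groups of 24 h and later did not overlap with 0 h. The log2 changes were -1.01 ± 0.17 (SE, adjusted p = 0.0164) at 24 h and -1.93 ± 0.16 (SE, adjusted p = 4e-05) at 48 h, where Tdh ranked 10 from the lowest of all symbols. The 24 h change no longer passed when 24 h replicate 3 was dropped (adjusted p = 0.444), or either 0 h library (adjusted p = 0.104 without replicate 1 and 0.306 without replicate 4).

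NTD over Utf1 was 10.4 and 14.3 FPKM at 0 h, 3.93, 4.86 and 3.89 FPKM at 48 h and 2.99 and 3.49 FPKM at 72 h, with log2 changes of -1.54 ± 0.22 (SE, adjusted p = 0.00126) and -1.96 ± 0.25 (SE, adjusted p = 7.17e-04). Its groups were widely separated, and at 72 h it ranked 8 from the lowest. Over Pou5f1 the levels were 2.90 and 5.08 FPKM at 0 h, 1.37, 1.66 and 1.36 FPKM at 48 h and 1.41 and 2.54 FPKM at 72 h. The 48 h libraries were far below the untreated ones and the higher 72 h library came close to the lower untreated one. The changes were -1.45 ± 0.24 (SE, adjusted p = 0.00282) and -1.03 ± 0.25 (SE, adjusted p = 0.0315). The 72 h change was -0.57 without 0 h replicate 4 (adjusted p = 0.351), -0.72 without 72 h replicate 1 (adjusted p = 0.0662) and -1.05 without both NTD libraries that stand apart (adjusted p = 0.0834).

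Over Sox2 the NTD level was 3.99, 6.37 and 5.45 FPKM at 48 h against 10.1 and 14.8 FPKM at 0 h, a log2 change of -1.25 ± 0.29 (SE, adjusted p = 0.0265). The 72 h call of Sox2 (-1.21 ± 0.32, adjusted p = 0.0461) was lost under 14 of 24 alternatives. L1td1 had 1.82, 2.46 and 1.56 FPKM at 48 h against 3.85 and 5.19 FPKM at 0 h, a log2 change of -1.21 ± 0.19 (SE, adjusted p = 0.00170). Its 24 h libraries, with 4.80 and 3.95 FPKM, lay within the untreated range. Without 0 h replicate 4 the 48 h changes of Pou5f1, L1td1 and Sox2 were -0.99, -0.99 and -0.96 and did not pass (adjusted p = 0.117, 0.0655 and 0.392).

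The other 3 genes gave no call over the body. NTD over Sall4 was 4.21 and 4.79 FPKM at 0 h, 3.37, 6.41 and 3.40 FPKM at 48 h and 2.97 and 4.39 FPKM at 72 h. Nanog had 2.36 and 4.22 FPKM at 0 h, 2.57, 2.67 and 3.33 FPKM at 48 h and 2.17 and 5.15 FPKM at 72 h. Lin28a had 2.51 and 2.21 FPKM at 0 h, 1.99, 3.13 and 2.07 FPKM at 48 h and 2.13 and 3.90 FPKM at 72 h. Treated and untreated libraries overlapped in each of the 3, and the 2 libraries of 72 h of Nanog lay on either side of its values at 0 and 48 h.

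**Figure D3:**
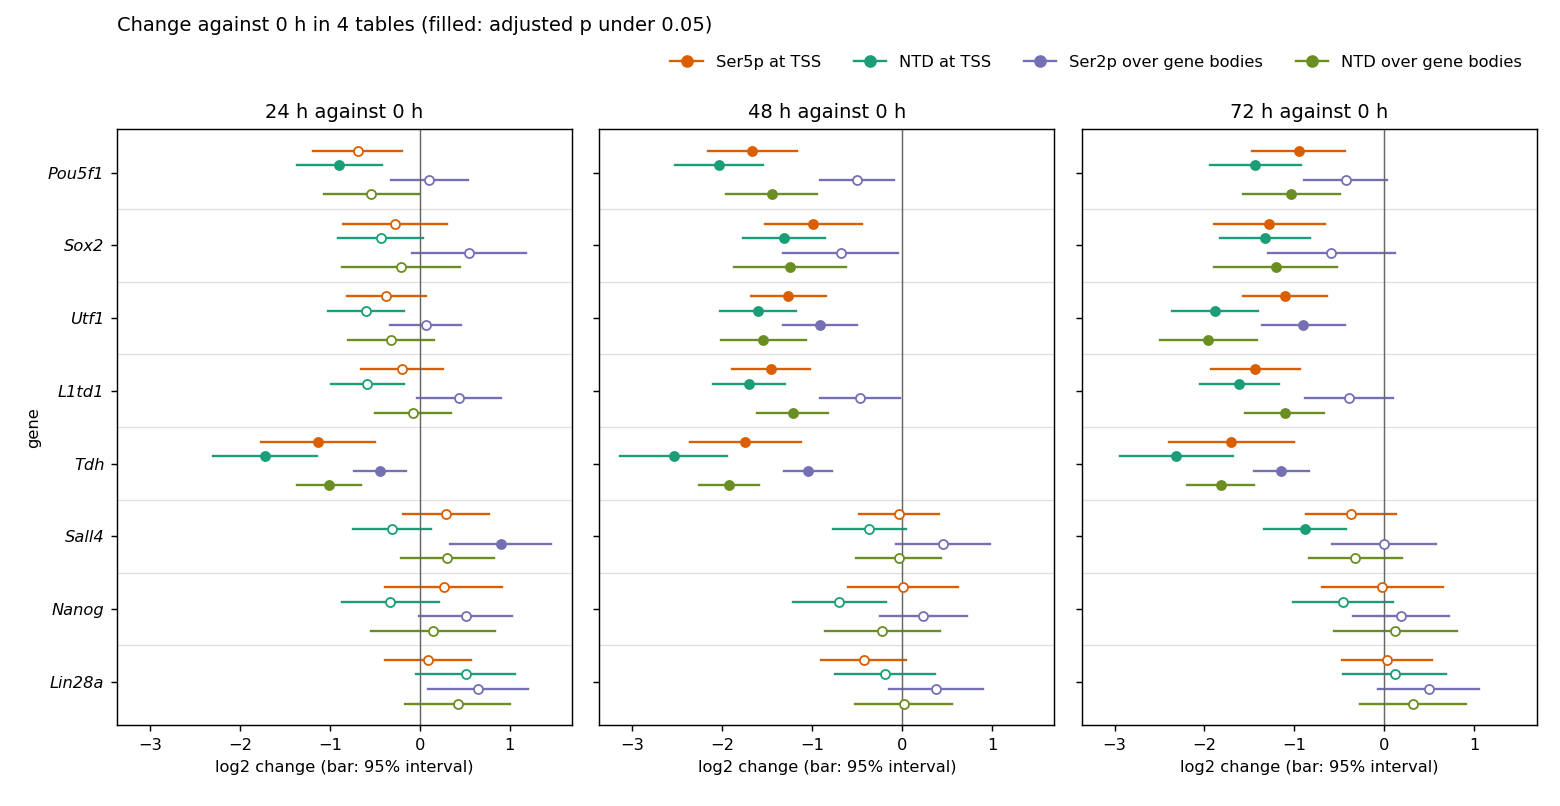
Log2 change against 0 h (x axis) of each gene (y axis) in the 4 tables at 24, 48 and 72 h, with 95% intervals; filled points had an adjusted p under 0.05. At 48 h Tdh stood at -1.74 (Ser5p at TSS), -2.54 (NTD at TSS), -1.05 (Ser2p over the body) and -1.93 (NTD over the body), and Lin28a had no filled point.

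Ser2p over gene bodies was called lower in fewer of the 8 genes than total Pol II over them. At 48 h and again at 72 h Utf1 and Tdh were called lower, 2 of 8, where 0.348% and 0.366% of 22154 symbols were. The median log2 change of the 8 was -0.48 and -0.41, against -0.02 and -0.03 over all symbols, and the F test called 4 genes, Pou5f1, Utf1, L1td1 and Tdh (7.03% of symbols). At 24 h the median was 0.48 against -0.03, with Tdh called lower (4.18% of symbols lower) and Sall4 called higher (8.19% higher).

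Tdh had 2.15 and 1.64 FPKM of Ser2p at 0 h, 1.61 and 1.28 FPKM at 24 h, 0.935, 0.943 and 0.913 FPKM at 48 h and 0.886 and 0.867 FPKM at 72 h. Each later group lay below both untreated libraries, and at 48 h the change was -1.05 ± 0.13 (SE, adjusted p = 4.45e-04). At 24 h it was -0.44 ± 0.14 (SE, adjusted p = 0.0473), a call lost under 15 of 24 alternatives. Utf1 had 3.44 and 2.87 FPKM at 0 h, 1.84, 1.82 and 1.41 FPKM at 48 h and 1.54 and 1.91 FPKM at 72 h. These groups did not overlap, and the changes were -0.91 ± 0.19 (SE, adjusted p = 0.0267) and -0.90 ± 0.22 (SE, adjusted p = 0.0485) at 48 and 72 h. At 48 h the change was -0.80 without 0 h replicate 1 (adjusted p = 0.186) and -1.02 without 0 h replicate 4 (adjusted p = 0.107). At 72 h the adjusted p was above 0.05 under 19 of 23 alternatives, while the change stayed between -1.04 and -0.77.

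Pou5f1 had 1.43, 1.10 and 1.04 FPKM of Ser2p at 48 h against 1.92 and 1.42 FPKM at 0 h. The highest library of 48 h was level with the lower untreated one, and the log2 change of -0.50 ± 0.20 (SE, adjusted p = 0.200) did not pass. Sox2 had 1.99, 2.36 and 2.39 FPKM at 48 h against 4.25 and 2.89 FPKM at 0 h, and L1td1 1.36, 1.69 and 1.53 FPKM against 2.13 and 2.02 FPKM. Both were lower in every 48 h library, and neither passed, at -0.68 ± 0.30 (SE, adjusted p = 0.252) and -0.47 ± 0.21 (SE, adjusted p = 0.264).

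Sall4 had 2.82 and 1.80 FPKM of Ser2p at 0 h, 2.91 to 4.21 FPKM at 2 h, 3.04 to 3.50 FPKM at 4 h, 2.85 to 3.85 FPKM at 6 h, 4.17 and 4.69 FPKM at 24 h, 2.38, 4.39 and 2.84 FPKM at 48 h and 1.77 and 2.94 FPKM at 72 h. All libraries of 2 to 24 h lay above both untreated ones. At 24 h the log2 change was 0.90 ± 0.26 (SE, adjusted p = 0.0412), a call lost under 10 of 24 alternatives. The change was 0.51 with the replicate block (adjusted p = 0.476). It was 0.81 without 24 h replicate 3 and 0.63 without 0 h replicate 4, each of which leaves 1 library in a group. Nanog and Lin28a were also higher in both 24 h libraries than in either untreated one, with 2.55 and 2.72 FPKM against 1.96 and 1.63 FPKM and 2.33 and 2.38 FPKM against 1.69 and 1.23 FPKM. Neither passed (adjusted p = 0.130 and 0.0854).

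Further losses were called between 24 and 48 h, a step that does not use the untreated libraries. At 48 h against 24 h, NTD at TSS was called lower in 4 genes (0.98% of symbols) and Ser5p in 2 (0.419%). NTD over gene bodies was called lower in 3 (0.969%) and Ser2p in 4 (1.24%). L1td1 and Utf1 were called in all 4 tables, and L1td1 fell by 1.12 on the log2 scale for NTD at TSS, by 1.26 for Ser5p, by 1.14 for NTD over the body and by 0.91 for Ser2p. Utf1 changed by -0.89 for Ser5p, -1.22 for NTD over the body and -0.98 for Ser2p, with NTD at TSS in between (adjusted p = 0.00750). For NTD at TSS, Pou5f1 changed by -1.14 ± 0.26 (SE, adjusted p = 0.0129) and Sox2 by -0.88 ± 0.23 (SE, adjusted p = 0.0376). Over bodies Tdh was called for NTD (-0.92 ± 0.16, adjusted p = 0.0101) and Ser2p (-0.61 ± 0.13, adjusted p = 0.0283), and Sox2 for Ser2p (-1.23 ± 0.29, adjusted p = 0.0387). Without 24 h replicate 2, which leaves 1 library at 24 h, the counts were 0 in all 4 tables. The changes of the called genes were then -0.76 to -0.55 for NTD at TSS, -0.97 and -0.71 for Ser5p, -0.99 to -0.61 for NTD over bodies and -1.39 to -0.44 for Ser2p. Some calls were also lost without 24 h replicate 3 or a single 48 h library, and with the authors' factors the counts were 0 for NTD at TSS and 1 for Ser5p.

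Between 6 and 24 h and between 48 and 72 h no gene was called lower in any table, by edgeR or, where it gave an adjusted p, by DESeq2, and 3, 1, 2 and 0 lower values (NTD at TSS, Ser5p, NTD over gene bodies, Ser2p) had an unadjusted p under 0.05 in edgeR. The shares of all symbols called lower in one or the other step were 0.0677% (NTD at TSS), 0.0131% (Ser5p), 0.0137% (NTD over gene bodies) and 0.00451% (Ser2p). Median changes of the 8 at 72 h against 48 h lay between 0.03 (Ser5p) and 0.16 (NTD at TSS) on the log2 scale.

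Whether a phosphorylated form changed otherwise than total Pol II was tested with an interaction term. For Ser2p against NTD over gene bodies no member and no symbol passed (0% of 22258 symbols), and 3 of 8 members had an unadjusted p under 0.05 at 48 h, against 981 symbols in all. At 48 h the difference, Ser2p change minus NTD change, was above 0 for all 8 genes, with a median of 0.62 on the log2 scale and a range of 0.37 to 0.97, against a median of 0.00 over all symbols. For Tdh it was 0.90 ± 0.21 (SE, 95% interval 0.47 to 1.33, adjusted p = 0.507). For Pou5f1 it was 0.97 ± 0.33 (95% interval 0.29 to 1.65), and for L1td1 0.77 ± 0.30. At 6, 24 and 72 h the medians were 0.30, 0.55 and 0.64, and Utf1 reached 1.08 ± 0.38 at 72 h. At 6 h, when no member was called lower, 7 of the 8 differences were above 0, and 0 had an unadjusted p under 0.05. All these differences use the same 2 Ser2p and 2 NTD libraries of 0 h, so they are not independent of one another, and the single Ser2p and NTD changes above share them too.

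Ser5p against NTD at TSS gave no member call either (0.449% of 22935 symbols passed at 6, 24, 48 or 72 h), with a median difference of 0.28 at 48 h and a range of -0.29 (Lin28a) to 0.75 (Tdh). The interval of Tdh, -0.23 to 1.73, does not show that the forms moved alike. The ratio of NTD over the gene body to NTD at the TSS passed for no member (1.18% of 20984 symbols passed at any of these times). Its median change at 48 h was 0.30, against 0.00 over all symbols, and Pou5f1 had the largest, 0.69 ± 0.29 (SE, adjusted p = 0.301).

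**Figure D4:**
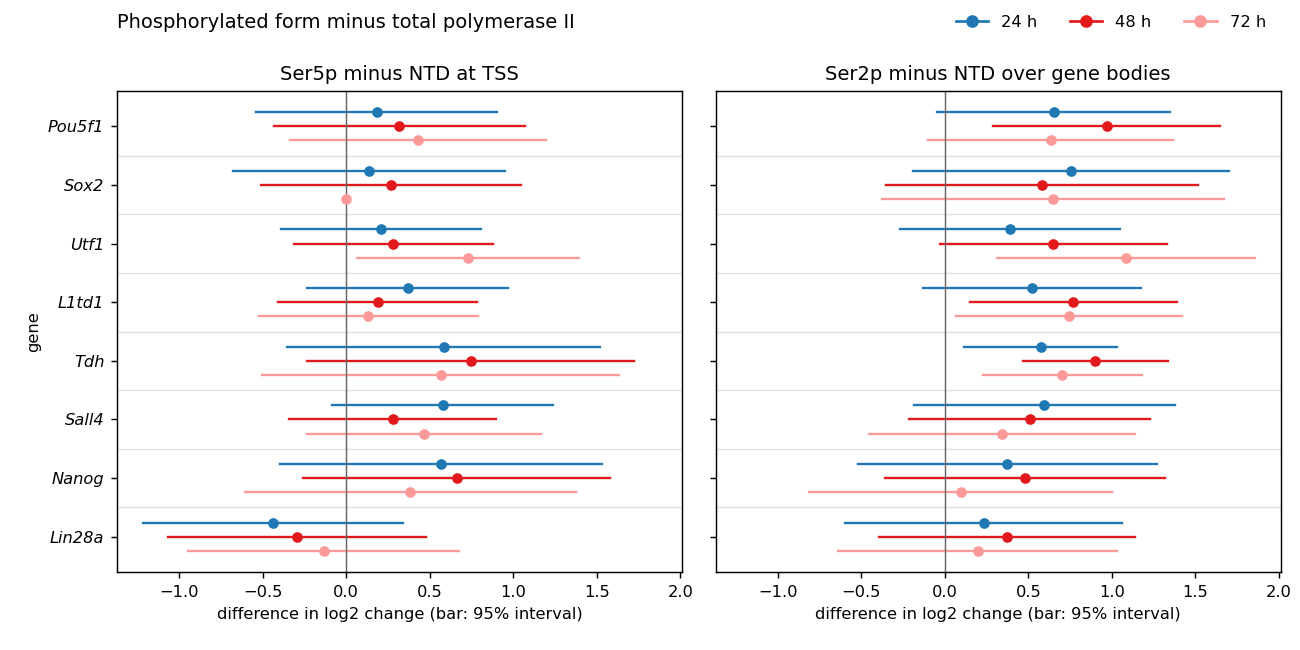
Log2 change of the phosphorylated form minus log2 change of NTD (x axis) for each gene (y axis), Ser5p at TSS on the left and Ser2p over gene bodies on the right, at 24, 48 and 72 h with 95% intervals. No difference had an adjusted p under 0.05; all 8 Ser2p differences at 48 h lay between 0.37 and 0.97, and no interval is drawn for Sox2 Ser5p at 72 h, where the difference is too near 0 to give one.

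The authors' deposited table gives log2 fold changes against 0 h, and its column names do not say whether they are shrunken. In the authors' deposited table NTD at TSS at 48 h changed by -1.36 for Tdh, -1.28 for Pou5f1, -1.24 for L1td1, -1.11 for Utf1 and -0.87 for Sox2, all with an adjusted p under 0.05, and by -0.42 for Lin28a, -0.25 for Sall4 and -0.14 for Nanog. For Ser2p at 48 h, Tdh alone had an adjusted p under 0.05 in the authors' deposited table (log2 fold change -0.64, adjusted p = 3.09e-08). For NTD at TSS at 24 h, no member passed in the authors' deposited table (Tdh -0.50, adjusted p = 0.428, Pou5f1 -0.12). At 72 h Sox2, Utf1, L1td1 and Tdh passed there, and Pou5f1 (-0.67, adjusted p = 0.0933) and Sall4 (-0.67, adjusted p = 0.139) did not. For Ser5p at 48 h Pou5f1, Utf1, L1td1 and Tdh passed there, and Sox2 (-0.49, adjusted p = 0.332) did not.

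Among 24 other genes of the pluripotency network, 14 were called lower and 1 higher at 48 h for NTD at TSS, 8 and 1 for Ser5p, 10 and 1 for NTD over gene bodies, and 3 and 1 for Ser2p. Their median log2 changes were -0.76, -0.54, -0.53 and -0.22. Over all symbols at 48 h, 1154 of 22142 were called lower and 1012 higher for NTD at TSS, and 1260 and 1447 of 22897 for Ser5p. The numbers were 414 and 359 of 21879 for NTD over gene bodies, and 77 and 281 of 22154 for Ser2p. The 48 h counts of the lists below stand beside the same numbers. With the authors' factors 7 were called lower for NTD at TSS and 6 for Ser5p. Over gene bodies NTD fell at Tdgf1, a Nodal co-receptor, by 2.20 on the log2 scale (SE 0.40, adjusted p = 0.00588) and at the nuclear receptor gene Nr0b1 by 1.97 (SE 0.21, adjusted p = 0.000143). The zinc-finger gene Zfp42 changed by -1.22 ± 0.28 (adjusted p = 0.0225) and the nuclear receptor gene Esrrb by -1.13 ± 0.14 (adjusted p = 0.000376). The gene called higher was Lefty1, a Nodal inhibitor, at 3.00 ± 0.38 for NTD (adjusted p = 0.000487) and 2.40 ± 0.36 for Ser2p (adjusted p = 0.00214). For Ser2p, Fgf4 changed by -1.03 ± 0.19 (adjusted p = 0.00955) and Esrrb by -0.63 ± 0.13 (adjusted p = 0.0261).

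Of 14 family members of the 8 genes, 2 were called higher and 0 lower for NTD over gene bodies at 48 h (median 0.08), Sox3 at 1.60 ± 0.42 (adjusted p = 0.0464, 0.0566 with the authors' factors) and Sox4 at 1.57 ± 0.23 (adjusted p = 0.00126). Of 13 enzymes of threonine, glycine and one-carbon metabolism, the pathway around Tdh, 2 were called lower, Mthfd2 at -1.01 ± 0.22 (adjusted p = 0.0182) and Mthfd1l at -0.37 ± 0.09 (adjusted p = 0.0252), both enzymes of mitochondrial folate metabolism, and the list median was -0.16. For Ser2p 0 of these 13 were called at 48 h in edgeR, 3 being lower and 1 higher at an unadjusted p under 0.05.

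Of 12 RA response genes, 8 were called higher and 1 lower for NTD over gene bodies at 48 h (median 0.88), among them the RA hydroxylase gene Cyp26a1 at 2.65 ± 0.51, the homeobox gene Hoxa2 at 2.39 ± 0.31 and Stra8 at 1.94 ± 0.31. The lower gene was Rarg, which codes for an RA receptor, at -0.67 ± 0.17 (adjusted p = 0.0388), which did not pass with the authors' factors and is named after its value was seen. Of 12 primitive endoderm markers 2 were called higher at 48 h, Foxa2 at 0.99 ± 0.22 and Lamb1 at 0.55 ± 0.10, and 9 at 72 h (median 1.08). Over all symbols 589 of 21879 were called higher at 72 h. Of 12 neural and 10 fibroblast markers 0 were called at 48 h in edgeR for NTD over gene bodies (medians 0.07 and 0.06). At an unadjusted p under 0.05, 1 neural marker was lower and 4 higher, and 0 fibroblast markers moved either way. Of 12 reference genes 1 was called lower, the ribosomal protein gene Rpl13a at -1.26 ± 0.29 (adjusted p = 0.023), and for Ser2p 2 were called higher, Actb at 1.44 ± 0.30 (adjusted p = 0.025) and Ywhaz at 0.72 ± 0.17 (adjusted p = 0.0472, 0.0524 with the authors' factors). Actb was also called higher for NTD over its body at 72 h (1.41 ± 0.31, adjusted p = 0.0184).

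To find genes whose Pol II followed the 8 most closely, each member was scaled over the libraries of a table and the 8 were averaged. Tdgf1 had the highest Pearson r to that average at TSS, 0.98 for NTD over 17 libraries and 0.97 for Ser5p over 18. Next for NTD came Lrrc2, 4930461G14Rik, Cnpy1 and Rnf125 (0.96 to 0.97), and for Ser5p Sulf2, 4930461G14Rik, Gpa33 and Zscan10 (0.95 to 0.96). Over gene bodies the closest were Wdr82, Got1, Dnajb6, Eif1a and Cyb5r1 for NTD (0.97 to 0.98) and N4bp1, Ubl3, Jam2, Fgd1 and Zbtb7a for Ser2p (0.96 to 0.98). Points of one library share its depth and scaling, so these values only describe likeness. Of the members themselves, Nanog (0.49, 0.36, 0.37 and 0.59 for NTD at TSS, Ser5p, NTD over bodies and Ser2p) and Lin28a (0.64, 0.69, 0.45 and 0.58) lay furthest from the average they are part of.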

How the data were processed

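Retinoic acid time courses of Pol II ChIP-seq in mouse E14 ES cells were taken from 4 deposited tables: NTD and Ser5p around transcription start sites (raw counts within 1 kb of the start), and NTD and Ser2p over gene bodies (raw counts over the whole transcript). Of the 157 samples in the labels, 53 have columns in these tables, and the others were not analysed here. The authors' tables also hold a normalized signal, which is the raw count times a factor per library, FPKM values over gene bodies, and the authors' log2 fold changes and adjusted p-values against 0 h. Per the submitters' processing notes, mm10, dm6, Bowtie2, SAMtools, MACS2 and DESeq2 were used, with no role or order stated, and the counting tool is not given in the sources used here.

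Raw counts were tested with edgeR 4.0.16 (R 4.3.3; TMM, filterByExpr, time as a factor, no block), with 0 h as baseline and p-values adjusted over all transcripts. Antibody differences were interaction terms, and limma 3.58.1 tested log2 body over TSS ratios of NTD (pseudocount 0.5 CPM). DESeq2 1.42.0, other scalings, no filter, a replicate block and leaving out libraries were alternatives. The fits were tested on simulated counts. Transcripts with no symbol held at most 0.0761% of counts, and 14 columns of group means were not used. The members and gene lists were chosen with earlier results of these data known. Beyond the members, the text names the members of each list with the largest changes among those called for NTD or Ser2p over gene bodies at 48 h, plus Esrrb, Zfp42, Tdgf1 and Actb. Intervals cover the spread between these libraries only. Replicate numbers were not taken as pairs.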

Additional observations from a re-analysis of the deposited data

How the results depend on the processing

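The 5 losses of NTD at TSS at 48 h (Pou5f1, Sox2, Utf1, L1td1, Tdh) and those of Tdh at 48 and 72 h in all 4 tables kept their direction and call under each alternative run. Of 54 called results of single genes, 0 changed sign over the alternatives run. Calls at 24 h and between 24 and 48 h were the least stable, and reads limit the TSS values of Tdh. The cause of the changes below was not tested.

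Members lower at 24 h for NTD at TSS numbered 2, and 1 with RLE size factors, with the authors' factors, with the replicate block, with DESeq2 and without 0 h replicate 4 and 72 h replicate 3 together. For Ser5p at 24 h the number was 1, and 0 with the authors' factors, the replicate block and DESeq2, which gave no adjusted p for Tdh. For Ser2p at 24 h it was 1, and 0 with RLE, the authors' factors and the block. For NTD over gene bodies without both libraries it was 0 at 24 h (1 with them) and 2 at 72 h (5 with them). Ser5p at 72 h gave 2 with the authors' factors (5 with TMM). Ser2p against 0 h gave 1 with the block both over all times and at 48 h (2 without it), and at 72 h 1 with RLE, the authors' factors, no filter, the block and DESeq2. Between later times the counts were 0 (NTD at TSS, 4 in the main test) and 1 (Ser5p, 2 in the main test) with the authors' factors, 5 for NTD over gene bodies with DESeq2 and without both libraries (3 in the main test), and 2 for Ser2p with DESeq2 (4 in the main test). Replicate numbers were not taken as pairs in the main tests, so any effect shared by same-numbered libraries is left in their p-values. For NTD at TSS, Ser5p, NTD over gene bodies and Ser2p, 17 of 32, 18 of 37, 27 of 32 and 20 of 37 same-numbered pairs had a correlation of deviations over 0.1. Of pairs with different numbers, 14 of 91, 22 of 101, 25 of 91 and 38 of 101 did. At times with 2 libraries the deviations mirror each other, so these correlations are not independent. Median correlations were 0.11, 0.10, 0.35 and 0.13 for the same number and -0.05, -0.04, -0.17 and -0.02 for different numbers, which for NTD over gene bodies is a hint of pairing from the data, not from the design. With the block the change of Sox2 there at 72 h was -1.23 (adjusted p = 0.0729) and that of Utf1 for Ser2p at 48 h -0.94 (adjusted p = 0.087). The block changed no other count of members past the limit of 1.5 times.

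Leaving out 1 library at a time, the counts ran from 0 to 4 at 24 h and 0 to 5 between later times for NTD at TSS. For Ser5p they ran from 0 to 1 at 24 h, 3 to 5 at 72 h and 0 to 3 between later times. For NTD over gene bodies they ran from 2 to 5 over all times, 0 to 1 at 24 h, 2 to 5 at 48 h, 2 to 5 at 72 h and 0 to 6 between later times. For Ser2p they ran from 1 to 2 over all times, 0 to 1 at 24 h, 1 to 2 at 48 h, 1 to 2 at 72 h and 0 to 5 between later times. All transcripts called lower at 48 h for NTD at TSS numbered 1567, 366 with the authors' factors and 678 without both libraries. For Ser5p they numbered 1760, and 854 with the authors' factors, where 3306 were called higher (2243 with TMM). For NTD over gene bodies they numbered 644, and 212 without both libraries.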

Other observations

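At 48 h, Ser5p at the TSS of primitive endoderm markers moved in both directions. These genes were picked out after their values were seen. Of 12 markers, Sox17 (log2 change -1.55), Gata4 (-1.37), Foxa2 (-1.05), Pdgfra (-0.92) and Gata6 (-0.91) were called lower for Ser5p and Dab2 (1.25) and Sparc (0.76) higher, against 0 lower and 4 higher for NTD at TSS in edgeR, where 0 were lower and 5 higher at an unadjusted p under 0.05. With the authors' factors 2 were lower and 2 higher for Ser5p, and the list median turned to 0.05 (-0.21 with TMM). Whether the list differed between Ser5p and NTD was not tested.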
